A study of Mus musculus with 21 samples.

Results

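*Fgf21*, *Gdf15*, *Klb*, *Fgfr4* and *Fgfr1* were followed in liver as 2 hormone genes released under nutrient stress, a coreceptor and a pair of FGF receptors. They are 5 of the 46078 gene rows in the count table, found by matching each row's Ensembl identifier to its symbol in the GENCODE M21 annotation of GRCm38. The data were poly(A) RNA-seq of 21 mouse livers, 1 library per animal as the titles give them, in a cross of genotype and diet. The question was how the liver responds when cysteine is neither eaten nor made, with removal of tryptophan for comparison.

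KO mice, labelled cse, lacked *Cse* (symbol *Cth*), which encodes cystathionine γ-lyase, the enzyme that releases cysteine from cystathionine, and the strain was on a 129/C57BL/6 background. The comparison mice were labelled WT, but the study describes them as heterozygous for *Cse*, so both genotypes may carry the altered allele. All were calorie-restricted males at least 9 weeks old, held on a control diet for 3 days and then for 2 days on the final diet. The final diet was control (CTR), the same diet without cysteine (noCys) or without tryptophan (noTrp), with the remaining amino acids increased to make up for the one removed. There were 3 WT CTR, 4 KO CTR, 4 WT noCys, 3 KO noCys (replicates 1, 3 and 4), 2 WT noTrp and 5 KO noTrp libraries. Total counts ran from 8889951 (KO noCys replicate 1) to 27230852 (KO CTR replicate 2). *Cth* was at 6.34 to 14.99 CPM in the 12 KO libraries and 108 to 452 CPM in the 9 WT libraries, so the genotype labels held in every library. The 8 hepatocyte markers, among them *Alb*, *Apoa1* and *Ttr*, summed to 61159 CPM or more in every library, as a liver sample should show. CPM here means counts brought to 1 library size by TMM factors, while marker sums use the unscaled total.

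FGF21 is an endocrine member of the fibroblast growth factor family that the liver secretes during fasting, amino acid shortage and other stresses. It signals through FGFR1 bound to β-Klotho, the product of *Klb*, chiefly in adipose tissue and brain. In hepatocytes β-Klotho pairs mainly with FGFR4, and that pair receives FGF15 from the gut and represses bile acid synthesis. GDF15, a distant member of the TGF-β superfamily, reduces food intake through GFRAL and its partner RET in the hindbrain. Both hormone genes are known targets of the integrated stress response, in which ATF4 and its C/EBP partners bind a composite DNA element in the genes they activate.

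The start-site windows of the 3 genes that passed the test in at least 1 comparison are shown because that element can be looked for in them. They are RefSeq windows on GRCm38.p6, 250 bases before to 50 after the start site, read 5′ to 3′ on the gene's strand. Capitals mark a match to TGATGNAAN, the letters used for the ATF4-C/EBP element, on either strand. The *Fgf21* window was chr7:45615441-45615740 on the minus strand, the *Gdf15* window chr8:70632407-70632706 on the minus strand and the *Fgfr4* window chr13:55152568-55152867 on the plus strand.
Fgf21: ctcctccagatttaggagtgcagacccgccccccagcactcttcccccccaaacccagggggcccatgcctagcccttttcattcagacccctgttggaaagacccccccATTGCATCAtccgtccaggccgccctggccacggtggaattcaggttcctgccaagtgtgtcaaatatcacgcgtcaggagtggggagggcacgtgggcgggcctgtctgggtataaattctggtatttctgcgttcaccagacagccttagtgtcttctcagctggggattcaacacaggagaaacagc
Gdf15: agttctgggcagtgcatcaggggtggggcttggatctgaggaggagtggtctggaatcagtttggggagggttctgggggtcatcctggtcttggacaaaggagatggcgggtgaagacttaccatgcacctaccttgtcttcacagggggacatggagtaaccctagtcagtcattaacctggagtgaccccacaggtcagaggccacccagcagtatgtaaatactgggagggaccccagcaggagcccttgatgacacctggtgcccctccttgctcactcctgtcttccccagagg
Fgfr4: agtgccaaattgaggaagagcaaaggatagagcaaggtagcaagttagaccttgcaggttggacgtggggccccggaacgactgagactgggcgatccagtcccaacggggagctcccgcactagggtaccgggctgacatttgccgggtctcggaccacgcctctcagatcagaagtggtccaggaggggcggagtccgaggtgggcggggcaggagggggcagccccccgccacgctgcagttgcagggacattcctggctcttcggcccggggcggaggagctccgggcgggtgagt

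The *Fgf21* window held ATTGCATCA, the element read on the opposite strand, at positions −140 to −132 from the start site. Of 32851 such windows over all genes, 3.95% held the element, and neither window of *Gdf15* nor that of *Fgfr4* did. TGACNNNGC, the core letters of the antioxidant response element to which NRF2 binds, was found in the *Klb* window alone (chr5:65348161-65348460, plus strand), as TGACAGGGC at −67 to −59, and in 12.4% of all windows. A match is a description of letters and not a measured site. 4 of the 5 genes had a window, and none was given for *Fgfr1*.

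In KO noCys liver *Fgf21* was higher and *Fgfr4* lower than in WT noCys liver. *Gdf15* was higher than in KO mice on either other diet. No difference in *Klb* or *Fgfr1* passed the test. The test was edgeR's quasi-likelihood F-test on all 21 libraries, with p adjusted by Benjamini-Hochberg over 14370 genes, and a gene was called when its adjusted p was under 0.05. All 5 genes passed the filter on low counts. Differences are log2 fold changes ± SE, and the p-values measure the spread between animals. Comparisons that use the same group share its libraries and are not independent of one another.

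**Figure D1:**
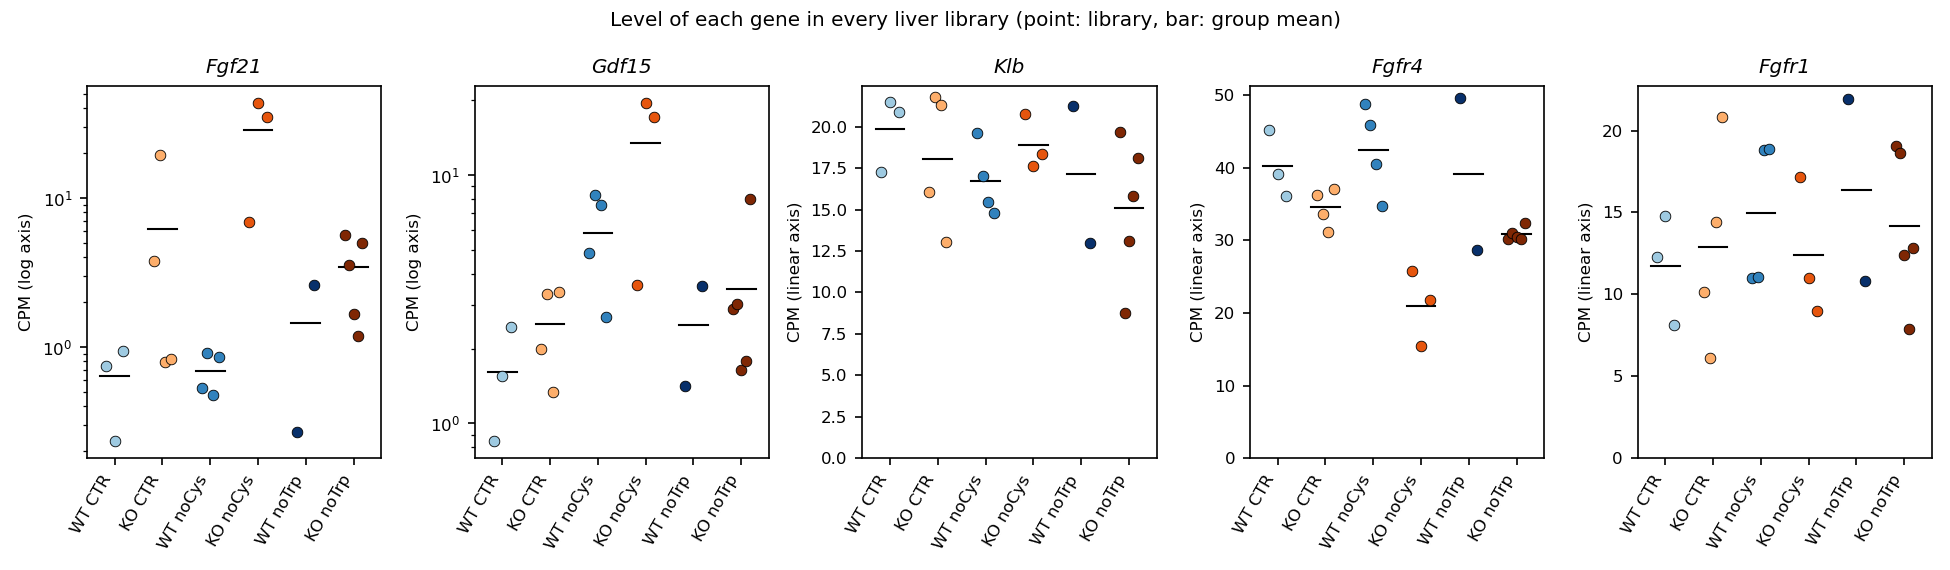
CPM of each gene in every library, with points for the 21 libraries, bars for group means, log axes for *Fgf21* and *Gdf15* and linear axes from 0 for the others. The 3 KO noCys libraries are the lowest of all for *Fgfr4* (15.4 to 25.8 CPM), while for *Fgf21* 2 of them (34.8 and 43.3 CPM) are the highest and the other (6.88 CPM) is below KO CTR replicate 2 (19.4 CPM).

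*Fgf21* (ENSMUSG00000030827, chr7:45613886-45615490, minus strand) encodes the hormone FGF21. It was at 0.741, 0.232 and 0.929 CPM in WT CTR and at 0.525, 0.901, 0.475 and 0.857 CPM in WT noCys. It was at 0.268 and 2.61 CPM in WT noTrp. These WT values rest on few reads, and the lowest, 3 counts in WT CTR replicate 2, has a 95% Poisson interval of 0.0478 to 0.678 CPM, which covers counting error only.

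In KO mice *Fgf21* was at 3.78, 19.4, 0.787 and 0.8225 CPM in CTR, the highest value belonging to replicate 2, the deepest library. It was at 6.88, 43.3 and 34.8 CPM in noCys, replicate 1 being the lowest there. It was at 5.65, 3.55, 1.65, 1.19 and 5.00 CPM in noTrp. Over diets, 8 of the 12 KO libraries were above every WT library, and the highest library was 187 times the lowest.

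Without cysteine, mean *Fgf21* was 28.3 ± 19.1 CPM in KO (SD, n = 3) against 0.689 ± 0.220 CPM in WT (SD, n = 4). The groups did not overlap, the difference of 5.36 ± 0.95 was called (adjusted p = 0.00037), and all 7 fits without 1 library called it (4.92 to 5.81). KO noCys was also above KO noTrp in every library, by 3.05 ± 0.73 (adjusted p = 0.00894). That call was lost without KO noCys replicate 3 (2.61, adjusted p = 0.0751).

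The other differences in *Fgf21* were not called. KO CTR against WT CTR was 3.47 ± 1.14 (adjusted p = 0.263) with 2 of 4 KO libraries above the WT ones, and fell to 1.63 without KO CTR replicate 2. KO noCys against KO CTR was 2.102 ± 0.74 (adjusted p = 0.0506), and without KO CTR replicate 2 it was 3.94 (adjusted p = 0.000814). Without KO noCys replicate 1 it was 2.55 (adjusted p = 0.0223), and 4 of 7 alternatives with all libraries called it, so it lay at the threshold. KO noTrp against KO CTR was −0.94 ± 0.71 (adjusted p = 0.524) and turned to 0.90 without the same library. Both diet comparisons in KO thus moved strongly with a single control library. KO noTrp against WT noTrp was 1.30 ± 1.09 (adjusted p = 0.813), and was 0.41 without WT noTrp replicate 1 and 3.65 without replicate 2.

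In WT mice the diet moved *Fgf21* by less than these data resolve. WT noCys against WT CTR was 0.22, with a 95% interval of −2.80 to 3.23, and WT noTrp against WT CTR was 1.24, with an interval of −1.87 to 4.35. The 2 WT noTrp libraries lay apart in most of the 5 genes (*Fgf21* 0.268 and 2.61 CPM, *Fgfr4* 49.6 and 28.7 CPM, *Klb* 21.3 and 12.997 CPM), so every difference that uses this group rests on 2 unlike animals. The genotype difference of *Fgf21* was larger without cysteine than on the control diet by 1.89 ± 1.72 (adjusted p = 0.550) and than without tryptophan by 4.07 ± 1.51 (adjusted p = 0.117), neither of which was called. The first was 3.73 without KO CTR replicate 2 and 3.37 under limma-voom, and the second 1.72 without WT noTrp replicate 2.

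*Gdf15* (ENSMUSG00000038508, chr8:70629393-70632456, minus strand) encodes the hormone GDF15. It was at 0.847, 1.55 and 2.44 CPM in WT CTR and at 1.998, 3.32, 1.34 and 3.38 CPM in KO CTR. Without cysteine it was at 4.84, 8.33, 7.60 and 2.67 CPM in WT and at 3.61, 19.5 and 17.1 CPM in KO. All 4 WT noCys libraries thus lay above all 3 WT CTR libraries, and 2 of 3 KO noCys libraries were above every WT library of any diet.

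Without tryptophan *Gdf15* was at 1.41 and 3.59 CPM in WT. It was at 2.88, 3.02, 1.65, 1.78 and 7.98 CPM in KO, with replicate 5 apart from the rest. KO noCys replicate 1, the shallowest library of the series, was the lowest of its group for both hormone genes.

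KO noCys exceeded KO CTR in *Gdf15* by 2.42 ± 0.55 (adjusted p = 0.00391), with no overlap, and the call held with each of 7 libraries left out (2.06 to 2.84). KO noCys exceeded KO noTrp by 1.98 ± 0.50 (adjusted p = 0.0124), with 2 of 3 libraries above all 5. This call was lost without KO noCys replicate 3 (1.61, adjusted p = 0.111) or 4 (1.78, adjusted p = 0.0580).

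The genotype difference in *Gdf15* without cysteine was 1.26 ± 0.52 (adjusted p = 0.0794) and the groups overlapped. Dropping KO noCys replicate 1 brought a call (1.68, adjusted p = 0.0168), as did limma-voom, library totals, no filter on low counts and the replicate block (adjusted p from 0.00521 to 0.0455 over these alternatives), so this difference too was at the threshold. WT noCys against WT CTR was 1.84 ± 0.65 (adjusted p = 0.197), and none of the 7 alternatives that kept all libraries called it (adjusted p 0.0612 to 0.234). Both genotypes were thus higher without cysteine in measured level, by 1.84 in WT and 2.42 in KO. The test of the difference between these, 0.58 ± 0.86, was not called (adjusted p = 0.736), with a 95% interval of −1.22 to 2.38. It ran from 0.21 (without WT CTR replicate 3) to 1.009 (without KO noCys replicate 1) with 1 library left out.

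The remaining *Gdf15* differences were 0.67 (KO CTR against WT CTR, 0.39 without WT CTR replicate 1 and 1.05 without replicate 3), 0.48 (KO noTrp against WT noTrp), 0.44 (KO noTrp against KO CTR) and 0.63 (WT noTrp against WT CTR), none called. Without KO noTrp replicate 5 the KO noTrp differences were −0.08 against WT noTrp and −0.12 against KO CTR.

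*Klb* (ENSMUSG00000029195, chr5:65348314-65384007, plus strand) encodes β-Klotho, the coreceptor that FGF21 and FGF15 both need. It was at 17.3, 21.5 and 20.9 CPM in WT CTR and at 16.1, 21.8, 21.3 and 13.1 CPM in KO CTR. It was at 19.6, 17.0, 15.5 and 14.8 CPM in WT noCys and at 20.8, 17.6 and 18.4 CPM in KO noCys. It was at 21.3 and 12.997 CPM in WT noTrp and at 19.7, 8.78, 13.1, 15.8 and 18.1 CPM in KO noTrp. Every pair of groups compared overlapped, and the highest library was 2.48 times the lowest, against 187 times for *Fgf21*.

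*Klb* was called in 0 of 10 comparisons by edgeR, DESeq2 or limma-voom, and its unadjusted p was under 0.05 in 0. Its 10 differences ran from −0.26 to 0.35. KO noCys against WT noCys was 0.17 ± 0.22, and its 95% interval of −0.29 to 0.64 covers small changes in either direction. It was 0.11 without KO noCys replicate 1 or WT noCys replicate 4. KO noCys against KO noTrp was 0.32 ± 0.21 (adjusted p = 0.346), and 0.18 without KO noTrp replicate 2.

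**Figure D2:**
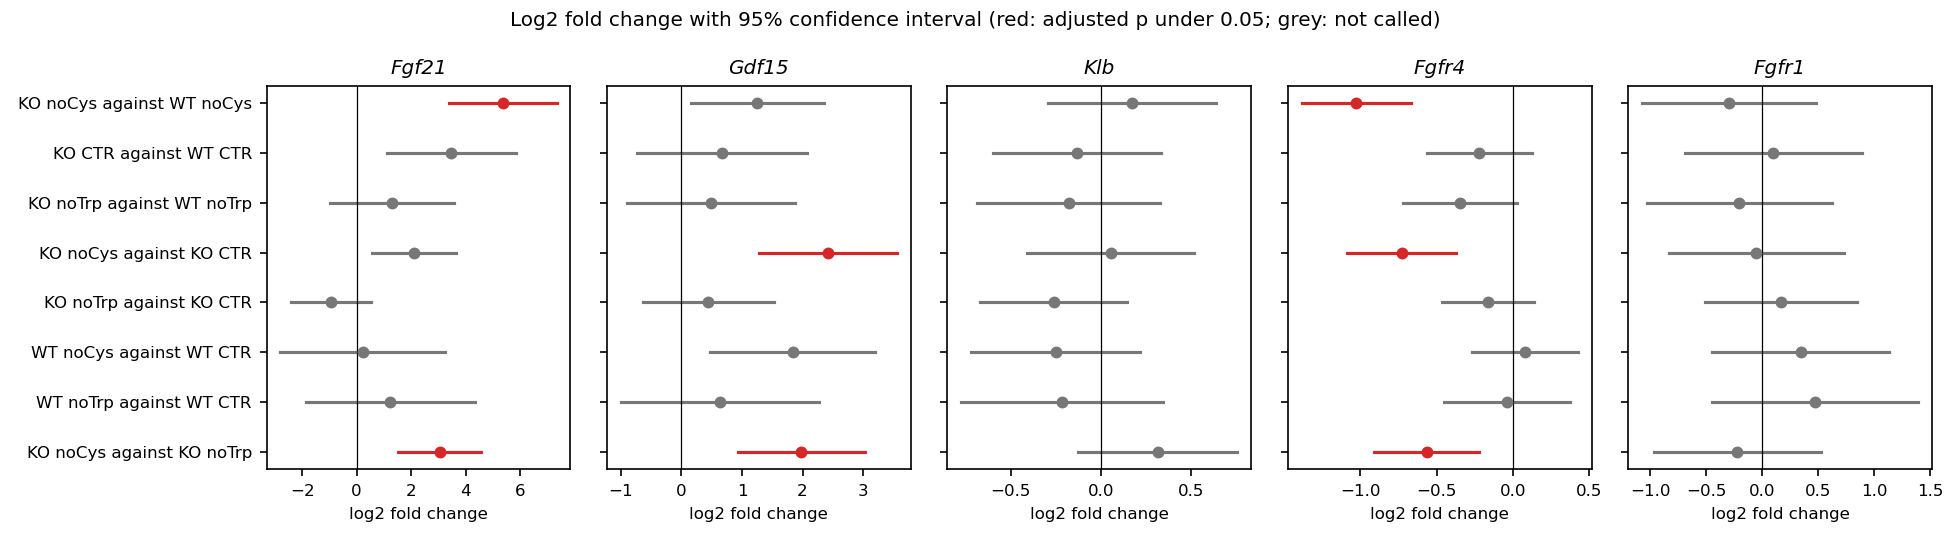
Log2 fold change of each gene in the 8 pairwise comparisons, with points for the estimates, lines for their 95% confidence intervals and red for adjusted p under 0.05; the horizontal scale differs between genes. *Fgf21* reaches 5.36 and *Fgfr4* −1.03 in KO noCys against WT noCys, and every *Klb* and *Fgfr1* interval crosses 0.

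*Fgfr4* (ENSMUSG00000005320, chr13:55152640-55168759, plus strand) encodes the main FGF receptor of hepatocytes. It was at 45.2, 39.2 and 36.1 CPM in WT CTR and at 36.2, 33.7, 31.1 and 37.1 CPM in KO CTR. Without cysteine it was at 48.7, 45.95, 40.5 and 34.8 CPM in WT and at 25.8, 15.4 and 21.9 CPM in KO. The 3 KO noCys libraries were the lowest of all 21, the next being WT noTrp replicate 2 at 28.7 CPM.

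Without tryptophan *Fgfr4* was at 49.6 and 28.7 CPM in WT and at 30.1, 31.0, 30.5, 30.2 and 32.4 CPM in KO. The KO noTrp libraries were close together, and 4 of 5 were below every KO CTR library, but the difference of −0.16 ± 0.15 was not called (adjusted p = 0.610).

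Mean *Fgfr4* was 21.02 ± 5.27 CPM (SD, n = 3) with cysteine removed in KO and 42.5 ± 6.18 CPM (SD, n = 4) with it removed in WT. The difference, −1.03 ± 0.17 (adjusted p = 0.000216), was called with each of 7 libraries left out (−1.19 to −0.84). KO noCys was also below KO CTR by a log2 difference of −0.73 ± 0.17 (adjusted p = 0.00513) and below KO noTrp by −0.57 ± 0.16 (adjusted p = 0.0263), without overlap in either case. Leaving out KO noCys replicate 3, the lowest library, gave −0.54 (adjusted p = 0.0555) and −0.37 (adjusted p = 0.217), and without replicate 4 the second difference was −0.60 (adjusted p = 0.0634).

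On the other diets the genotype difference in *Fgfr4* was −0.22 ± 0.17 (CTR, adjusted p = 0.721) and −0.34 ± 0.18 (noTrp, adjusted p = 0.609), and in WT mice cysteine removal gave 0.08 ± 0.17 (adjusted p = 0.884). The genotype difference without cysteine was below that on the control diet by −0.81 ± 0.24 (adjusted p = 0.0438), a call made in 3 of 14 fits with 1 library left out (−0.97 to −0.62). Against the difference without tryptophan it was −0.68 ± 0.25 (adjusted p = 0.113), called in 2 of 14 fits with 1 library left out. These were without WT noTrp replicate 1 (−1.13, adjusted p = 0.0188) and without KO noCys replicate 1 (−0.85, adjusted p = 0.0429), and without WT noTrp replicate 2 it was −0.34.

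Like *Fgfr4*, the hepatocyte markers were lower in KO noCys than in WT noCys. Their sum was 61159 to 85009 CPM in KO noCys, 100452 to 108445 in WT noCys, 81742 to 93860 in KO CTR and 78108 to 98090 in KO noTrp. In KO noCys replicate 1 the sum (85009 CPM) was inside the KO CTR and KO noTrp ranges, while its *Fgfr4* (25.8 CPM) was below both groups. Per 1000 marker counts, *Fgfr4* was at 0.287 to 0.376 in KO noCys and 0.321 to 0.453 in WT noCys, ranges that overlap. In a fit with the marker sum as library size, chosen after the data were seen, *Fgfr4* in KO noCys differed by −0.25 from WT noCys (adjusted p = 0.204), by −0.27 from KO CTR (adjusted p = 0.208) and by −0.22 from KO noTrp (adjusted p = 0.303), none of them called. The test between the control and noCys genotype differences then gave −0.12 (adjusted p = 0.695).

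That scaling shifts all genes of a library alike, and it raised the median difference of all genes to 0.80, 0.51 and 0.39 in these 3 comparisons and to 0.73 in the test between differences. *Klb* was then at 0.97 (adjusted p = 0.000432) against WT noCys. The lost *Fgfr4* calls and the gained *Klb* call both went with this shift of all genes, and a difference of *Fgfr4* relative to the hepatocyte markers was not detected. In bulk tissue, fewer cells of a type and less RNA per cell cannot be told apart, and the part of the markers in this result was not tested. Of other cell types, the 6 adipocyte markers summed to 9.56 to 30.6 CPM in KO noCys, the highest of all libraries being replicate 3, and to 4.96 to 12.4 CPM in WT noCys, 5.77 to 10.1 in KO CTR and 11.5 to 17.3 in KO noTrp. In KO noCys *Cidec*, which fatty hepatocytes also express, carried most of that sum (15.5 ± 9.74 CPM, SD, n = 3), *Cfd* was at 0.203 ± 0.274 CPM (SD, n = 3), and *Adipoq*, *Plin1*, *Lep* and *Retn* were at 0. Acinar markers summed to 15.1 to 17.7 CPM in KO noCys and 11.8 to 16.5 in WT noCys, with *Prss2*, *Cpa1*, *Ctrb1* and *Pnlip* at 0 in KO noCys. The cholangiocyte markers, at 6.64 to 7.71 CPM in KO noCys and 9.21 to 18.3 in WT noCys, did not overlap between these groups. Of single tested genes, 37.6% did not overlap there either. The sums overlapped those of KO CTR (5.88 to 12.2) and KO noTrp (6.93 to 11.8). Kupffer cell and leukocyte markers summed to 69.6 to 93.6 CPM in KO noCys and 106 to 166 in KO noTrp. Endothelial markers summed to 61.4 to 68.1 and 86.4 to 114 CPM. Neither pair overlapped, as for 19.6% of single genes, but both lists overlapped between KO noCys and WT noCys.

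*Fgfr1* (ENSMUSG00000031565, chr8:25513654-25575718, plus strand) encodes the receptor through which FGF21 acts in its target tissues. It was at 12.3, 14.8 and 8.13 CPM in WT CTR and at 10.1, 6.14, 14.4 and 20.8 CPM in KO CTR. It was at 11.03, 11.04, 18.8 and 18.9 CPM in WT noCys and at 17.1, 11.01 and 9.00 CPM in KO noCys. It was at 21.9 and 10.8 CPM in WT noTrp and at 19.1, 18.6, 12.4, 7.91 and 12.8 CPM in KO noTrp. Every pair of groups compared overlapped.

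*Fgfr1* was called in 0 of 10 comparisons by edgeR, DESeq2 or limma-voom, with an unadjusted p under 0.05 in 0. KO noCys against WT noCys was −0.30 ± 0.37, with a 95% interval of −1.08 to 0.48, so a moderate fall was not detectable in these libraries, and it was −0.58 without KO noCys replicate 1 and −0.11 without replicate 4. The gene shares 164 exon bases with *Gm16159* on the other strand, and with the strand setting of the counting not given, reads there cannot be assigned.

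Set against all genes, the calls of the 5 fell as follows. In KO noCys against WT noCys 2 of 5 were called (*Fgf21* higher, *Fgfr4* lower), where 28.2% of all tested genes were. In KO noCys against KO CTR 2 of 5 were called (*Gdf15* higher, *Fgfr4* lower), against 20.2%, and in KO noCys against KO noTrp 3 of 5, against 13.9%. In a set of 5, such counts beside these shares are no result about the set, and the sizes and library values above carry the description.

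None of the 5 was called in KO CTR against WT CTR (0.32% of all genes), KO noTrp against WT noTrp (0.195%), KO noTrp against KO CTR (1.87%), WT noCys against WT CTR (0.661%) or WT noTrp against WT CTR (3.19%). The unadjusted p was under 0.05 in these for 1, 0, 0, 1 and 0 genes, and DESeq2 and limma-voom called 0 in each. Of the tests between differences, 1 of 5 was called for the control diet (*Fgfr4*, with 7.44% of all genes) and 0 of 5 for noTrp (6.35%), where 2 had an unadjusted p under 0.05 and both other tools called 0. Groups did not overlap in KO noCys against WT noCys for *Fgf21* and *Fgfr4*, which also held for 37.6% of all genes, between KO noCys and KO CTR for *Gdf15* and *Fgfr4* (28.6%), and between KO noCys and KO noTrp for *Fgf21* and *Fgfr4* (19.6%). *Gdf15* did not overlap between WT noCys and WT CTR, as for 16.4% of all genes.

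**Figure D3:**
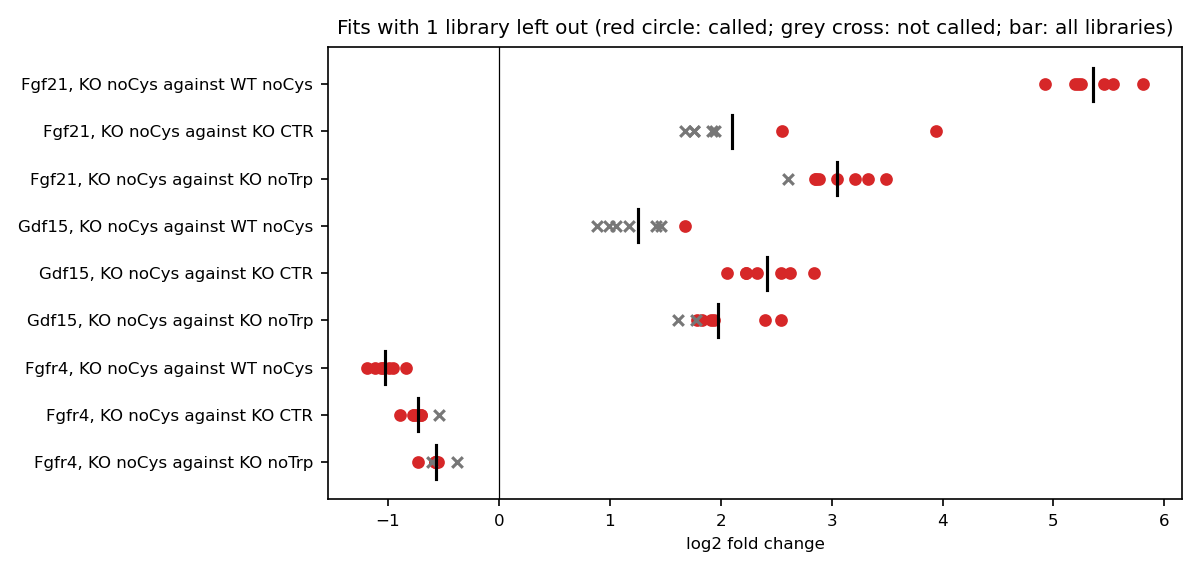
Log2 fold change of *Fgf21*, *Gdf15* and *Fgfr4* in KO noCys against 3 other groups with 1 library left out at a time, where red circles are called, grey crosses are not and black bars give the value with all libraries. *Fgf21* and *Fgfr4* against WT noCys and *Gdf15* against KO CTR are called in all 7 fits, while *Fgf21* against KO CTR spreads from 1.68 to 3.94.

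Levels can be compared between genes only per length, here as CPM per kilobase of annotated exon. In WT CTR the means were 11.3 for *Fgfr4*, 4.37 for *Klb*, 1.19 for *Fgfr1*, 0.870 for *Gdf15* and 0.667 for *Fgf21*. *Fgfr4* and *Klb* were apart from each other and from the rest in every WT CTR library. *Fgfr1* (0.823 to 1.495), *Gdf15* (0.457 to 1.32) and *Fgf21* (0.244 to 0.977) overlapped.

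In KO noCys the means of both hormone genes lay above those of the receptors, whose own order was the same, with *Fgf21* at 29.8, *Gdf15* at 7.23, *Fgfr4* at 5.94, *Klb* at 4.16 and *Fgfr1* at 1.25 CPM per kilobase. The ranges of *Fgf21* (7.23 to 45.5), *Gdf15* (1.95 to 10.5) and *Fgfr4* (4.35 to 7.29) overlapped, *Klb* at 3.88 to 4.56 overlapped *Gdf15* and *Fgfr4*, and *Fgfr1* at 0.911 to 1.74 was below the other 4. The order of means did not hold in KO noCys replicate 1, where *Fgfr4* (7.29) was level with *Fgf21* (7.23) and *Gdf15* (1.95) was below *Klb* (4.56), while the other 2 libraries had *Fgf21* far above *Fgfr4*.

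**Figure D4:**
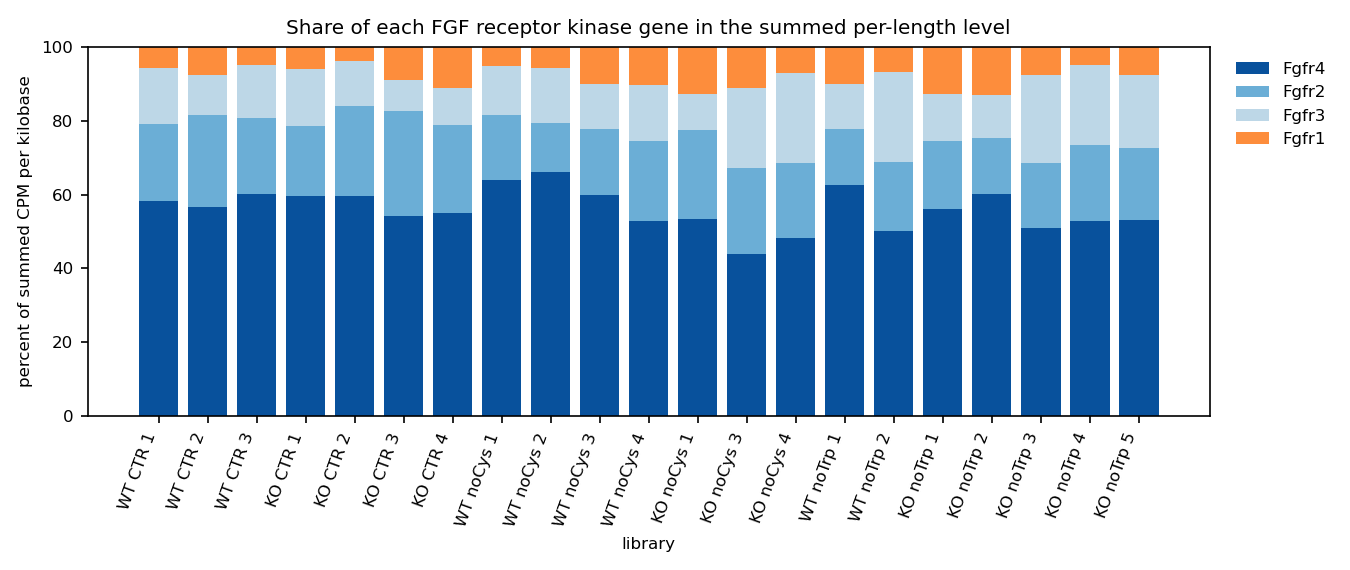
Share of *Fgfr4*, *Fgfr2*, *Fgfr3* and *Fgfr1* in their summed CPM per kilobase, 1 stacked bar for each of the 21 libraries. *Fgfr4* takes 43.8% to 66.1% and *Fgfr1* 3.90% to 13.02%, and the lowest *Fgfr4* share is that of KO noCys replicate 3.

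Among the 4 receptor kinase genes, *Fgfr4* held the largest share of the summed per-length level in all 21 libraries, with a median of 56.2%. *Fgfr1* had a median of 7.56%. In KO noCys the share of *Fgfr4* was 43.8% to 53.3% and in WT noCys 52.9% to 66.1%, which overlap, and *Fgfr1* was at 7.13% to 12.7% and 5.19% to 10.3%. *Fgfr3* shares 998 exon bases with an antisense gene and *Fgfr2* 314 with *Ctbp2* on the same strand, so these shares, like that of *Fgfr1*, are uncertain. The length used was all annotated exon bases, 3542 for *Fgfr4*, 10328 for *Fgfr2*, 7158 for *Fgfr3* and 9875 for *Fgfr1*. The shares and their ranking depend on these lengths, and the lengths of the transcripts present in liver were not measured.

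Of the other genes of these pathways, 59 in all, 53 could be tested. The ligand side was nearly bare, with *Fgf15*, the gut hormone received by FGFR4, at 0 counts in all 21 libraries and *Fgf23* at 1 count in 1 library. So was the GDF15 receptor, with *Gfral* at 0 counts in 21 libraries and *Ret* at no more than 1 count. *Kl*, the α-Klotho gene, had at most 2 counts and *Fap*, whose protease cleaves FGF21, at most 5. A count of 0 allows up to 3 counts in a library, as a one-sided 95% limit for counting error.

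In KO noCys against WT noCys 9 of the 53 rose and 5 fell, where 28.2% of all genes were called, and the same counts, 9 and 5, were found in KO noCys against KO CTR, where 20.2% were. In KO noCys against KO noTrp 8 rose and 3 fell, where 13.9% of all genes were called. Beside those shares such counts are no result about the pathways, and the counts of the single lists in KO noCys against WT noCys stand beside the same 28.2%. In KO CTR against WT CTR 0 were called, where 0.32% of all genes were. There 5 had an unadjusted p under 0.05, and 0 were called by DESeq2 or limma-voom. In WT noCys against WT CTR 0 were called by edgeR, where 0.661% of all genes were. There 11 had an unadjusted p under 0.05, and 1 was called by DESeq2 and 3 by limma-voom.

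**Figure D5:**
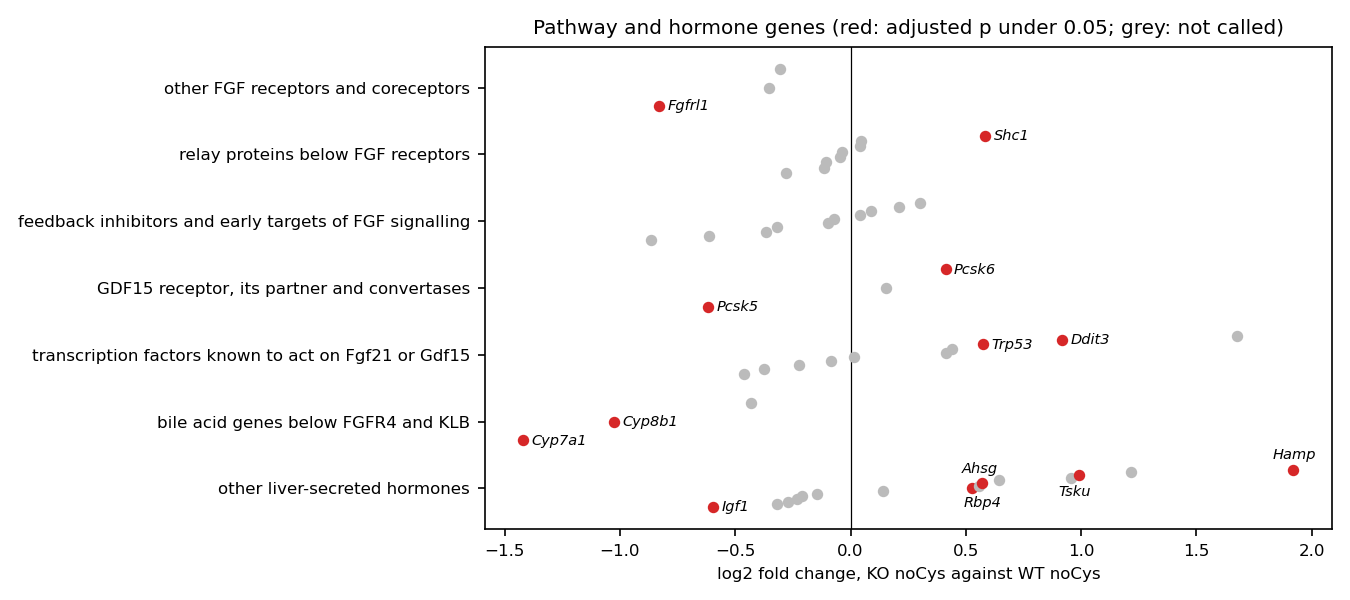
Log2 fold change of the tested pathway and hormone genes in KO noCys against WT noCys, 1 point per gene (1 gene is not drawn), grouped by list, with called genes in red and named. *Cyp7a1* at −1.42 and *Hamp* at 1.92 are the called genes farthest from 0, and the 10 feedback and early target genes are all grey.

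Of the 3 other receptor genes 0 rose and 1 fell. *Fgfrl1*, a receptor-like protein without a kinase domain, fell by 0.83 on the log2 scale (SE 0.14, adjusted p = 0.000181), from 42.2 ± 2.49 CPM (SD, n = 4) in WT noCys to 23.8 ± 2.02 CPM (SD, n = 3) in KO noCys, beside the fall of *Fgfr4* and with the same markers moving. Of the 8 relay proteins 1 rose and 0 fell. *Shc1*, an adaptor that links receptor kinases to RAS, rose by 0.58 ± 0.11 (adjusted p = 0.000497), and the others lay between −0.28 and 0.04. The median of the relay list was −0.04, beside −0.02 over all genes.

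Of the 10 feedback inhibitors and early targets of FGF signalling, such as *Spry4*, *Dusp6* and *Egr1*, 0 were called. 1 had an unadjusted p under 0.05 (*Spry2*, −0.87, adjusted p = 0.0640), DESeq2 called 0 and limma-voom 1. Their values ran from −0.87 to 0.30. The intervals were as wide as −1.82 to 1.17 for *Il17rd*.

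Of the 3 bile acid genes below FGFR4 and β-Klotho 0 rose and 2 fell. *Cyp7a1*, the rate-limiting enzyme of bile acid synthesis, was at 41.3 ± 19.5 CPM (SD, n = 3) in KO noCys and 111 ± 39.3 CPM (SD, n = 4) in WT noCys, a difference of −1.42 ± 0.45 (adjusted p = 0.0229). *Cyp8b1*, which makes cholic acid, differed by −1.03 ± 0.35 (adjusted p = 0.0354), and *Nr0b2*, the repressor SHP, by −0.43 (adjusted p = 0.498). The hepatocyte marker sum was lower in the same comparison (61159 to 85009 against 100452 to 108445 CPM), and its part in these falls was not tested. With 1 library left out *Cyp7a1* was called in 4 of 7 fits, lost without KO noCys replicate 1 (−1.29) or 3 (−1.18) or WT noCys replicate 2 (−1.17). *Cyp8b1* was called in 3 of 7, lost without KO noCys replicate 3 (−0.63) or 4 (−1.05) or WT noCys replicate 1 (−1.05) or 2 (−0.74). *Cyp7a1* differed by −0.52 ± 0.42 in KO noCys against KO noTrp (adjusted p = 0.439). In KO noTrp against KO CTR *Cyp7a1* differed by −1.26 ± 0.38 (adjusted p = 0.0853), and neither difference was called.

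Of the 10 transcription factors known to act on the hormone genes 2 rose and 0 fell, beside 28.2% of all genes called, and DESeq2 called 3 and limma-voom 7. *Ddit3*, the stress factor CHOP, rose by 0.92 ± 0.25 (adjusted p = 0.00916) and *Trp53*, which encodes p53, by 0.57 ± 0.16 (adjusted p = 0.0097), each without a call when KO noCys replicate 3 was left out (0.66 and 0.47). *Ddit3* shares 68 exon bases with *Mars* and 105 with a second annotated gene of the same name and strand. *Atf4* (0.42, adjusted p = 0.0909), *Atf3* (1.68, adjusted p = 0.0608) and *Ppara* (−0.38, adjusted p = 0.0960) did not pass in KO noCys against WT noCys. In KO noCys against KO noTrp 3 of the 10 were called higher and 0 lower, where 13.9% of all genes were called. They were *Atf4* (0.55, adjusted p = 0.0361), *Atf3* (1.94, adjusted p = 0.0403) and *Ddit3* (1.25, adjusted p = 0.00175). In KO noCys against WT noCys the 3 convertases able to process GDF15 gave 1 rise (*Pcsk6*, 0.41 ± 0.14, adjusted p = 0.0378) and 1 fall (*Pcsk5*, −0.62 ± 0.18, adjusted p = 0.0158). *Furin* was at 0.16 (adjusted p = 0.328). *Pcsk6* was called in 3 of 7 fits with 1 library left out, lost without KO noCys replicate 1 (0.37) or 3 (0.38) or WT noCys replicate 2 (0.39) or 3 (0.32), and *Pcsk5* in 4 of 7, lost without KO noCys replicate 3 (−0.54) or 4 (−0.59) or WT noCys replicate 1 (−0.51).

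Of 16 other hormones and secreted factors of the liver 5 rose and 1 fell, beside 28.2% of all genes called. *Hamp*, the iron hormone hepcidin, rose by 1.92 ± 0.55 (adjusted p = 0.0126), from 410 ± 199 CPM (SD, n = 4) to 1551 ± 281 CPM (SD, n = 3). *Tsku*, a secreted regulator of cholesterol handling, rose by 0.99 ± 0.37 (adjusted p = 0.0485) and *Igf1*, the growth factor, fell by 0.59 (SE 0.15, adjusted p = 0.00617), the latter call being lost without KO noCys replicate 3 (−0.47). Over 7 alternatives with all libraries *Igf1* ran from −0.61 to −0.39 and was called in each. The hepatocyte marker sum was lower in the same comparison, and its part in the fall of *Igf1* was not tested. *Tsku* was called in 1 of 7 fits with 1 library left out, and was at 0.33 (adjusted p = 0.551) without KO noCys replicate 3. *Ahsg* and *Rbp4* rose by 0.57 and 0.53. *Inhbe* (0.96, adjusted p = 0.149) and *Angptl8* (0.64, adjusted p = 0.187) were not called.

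The genes most like each member across the 21 libraries were ranked by Pearson's r of log2 CPM over 10365 genes. This is a description, since the libraries share genotype, diet and composition. Nearest to *Fgf21* were *Tbl2* (r = 0.92), *Ftsj3* (0.90), *Vps52* (0.90), *Pced1a* (0.89) and *Phykpl* (0.89). With group means removed these were 0.76, 0.74, 0.78, 0.71 and 0.66, so the likeness held partly between animals of a group.

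Among the 5 nearest to *Gdf15* were *Slc35c1* (r = 0.86), *Tsku* (0.85), *Cebpg* (0.79) and *Chka* (0.77), and *Cebpg* encodes a C/EBP protein that pairs with ATF4. Nearest to *Klb* were *Thap2* (0.88), *Zfp507* (0.88), *Vegfc* (0.87), *Papola* (0.86) and *Usp9x* (0.86). For *Klb* the values with group means removed were as high, 0.84 to 0.89, so this likeness held between animals of the same group, pooled over all groups.

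*Fgf21* and *Gdf15* had r = 0.60 (Spearman's rho 0.49) over the 21 libraries and r = 0.56 within groups. *Fgf21* and *Fgfr4* had r = −0.81 (rho −0.80), and −0.42 within groups. In KO noCys replicate 3 held the highest *Fgf21* and *Gdf15* and the lowest *Fgfr4* of the 3 libraries, and replicate 1 the reverse. *Klb* followed neither hormone gene (r = 0.01 with *Fgf21* and −0.03 with *Gdf15*).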

How the data were processed

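Poly(A) RNA of 21 mouse livers was sequenced. The authors deposited 1 table of raw gene counts, whole numbers with no normalization. The submitters' processing notes name HISAT2 2.1.0, HTSeq 0.11.0 and GRCm38. The annotation release and the strand setting are not given in the sources used here, so overlapping genes cannot be told apart. 1 column matched no sample and was not used. Of 46078 gene rows, 935 (0.0715% of counts) were not in GENCODE M21, and 0 rows named no gene. Groups and replicate numbers came from the sample titles.

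Counts were fitted with edgeR 4.0.16 in R 4.3.3 as a one-way model over 6 groups, with TMM factors (0.883 to 1.14) and filterByExpr (minimum count 10, minimum total 15), which kept 14370 of 26504 genes with any count. Contrasts were tested two-sided by the quasi-likelihood F-test with Benjamini-Hochberg adjustment over all 14370. The SE is the log2 fold change over the root of F. The scripts were tested on simulated data. Total counts ran from 8889951 to 27230852, and *Fgf21* had few counts in most WT libraries.

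Alternatives were DESeq2 1.42.0, limma-voom (limma 3.58.1) with quality weights, RLE size factors, library totals alone, no filter, a fit on the compared groups alone, a block for the replicate number, and each library left out. Hepatocyte marker sums as library size were added for *Klb* and *Fgfr4* after the data were seen. Members and gene lists were chosen with earlier results of these data known. Named were the 5 members, of each list the called genes in KO noCys against WT noCys (at most the 4 largest) with uncalled ones as a range, and the 5 genes most like *Fgf21*, *Gdf15* and *Klb* (mean log2 CPM over 1, prior count 2). *Spry2*, *Spry4*, *Dusp6*, *Egr1*, *Il17rd*, *Nr0b2*, *Atf4*, *Atf3*, *Ppara*, *Furin*, *Ahsg*, *Rbp4*, *Inhbe* and *Angptl8* were named beyond that rule after their values were seen. 1 called list gene and 1 gene among those most like *Gdf15* are not reported here.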

Additional observations from a re-analysis of the deposited data

Results flagged for a closer look

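*Fgf21* in KO CTR replicate 2 was at 19.4 CPM (544 counts), far above the other 3 KO CTR libraries at 0.787 to 3.78 CPM, with a gap of 0.839 of the group's range. That library was the deepest of the series, and it also had the lowest *Fgfr1* of all 21 libraries (6.14 CPM), while its *Gdf15* (3.32 CPM) and *Fgfr4* (33.7 CPM) lay between those of the other KO CTR libraries. *Gdf15* in KO noTrp replicate 5 was at 7.98 CPM, against 1.65 to 3.02 CPM in the other 4 libraries of its group, with a gap of 0.784 of the range. These were 2 of 15 groups examined in this way. Chance would mark about 1 in 20 only if values in a group were normally distributed, which was not tested.

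The genotype difference of *Fgfr4* without cysteine lay below that on the control diet by a log2 value of −0.81 (edgeR adjusted p = 0.0438), which picked it out as differing between the diets. It held in 3 of 14 fits with 1 library left out, and was −0.12 (adjusted p = 0.695) with the hepatocyte marker sum as library size, a scaling that raised the median of all genes in this test to 0.73, so this value carries the shift of all genes and is not separate evidence on *Fgfr4*.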

How the results depend on the processing

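Limits: groups held 2 to 5 animals, WT *Fgf21* rested on 3 to 35 counts per library, and counting error is then large. Over 62 results (the 5 members in 10 comparisons and 12 list genes in 1), 422 of 453 refits with all libraries and 432 of 509 with 1 left out kept direction and side of the threshold. The cause of a change was not tested. *Fgf21* could not be fitted for WT noCys against WT CTR with the groups compared alone, since the filter removed it there. Library totals alone moved the median of all genes in KO noCys against WT noCys from −0.02 to 0.20.

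*Fgf21*, KO noCys against KO CTR, became called under limma-voom (3.69), library totals (2.24) and no filter (2.08). *Gdf15*, KO noCys against WT noCys, did so too (1.67, 1.51 and 1.27). *Fgf21*, KO noTrp against KO CTR, turned to 0.32 under limma-voom. Library totals turned *Fgfr4*, WT noTrp against WT CTR, to 0.031, *Fgfr1*, KO noCys against KO CTR, to 0.071 and its genotype difference, noCys minus noTrp, to 0.075. With hepatocyte marker sums *Klb* in KO noCys was called against WT noCys (0.97), KO CTR (0.55) and KO noTrp (0.71) and in the tests against the genotype difference on CTR (1.007) and noTrp (1.02), where the same scaling moved the median of all genes to 0.80, 0.51, 0.39, 0.73 and 0.71. Calls were lost for *Tsku* under DESeq2 (0.99, adjusted p = 0.0569), with only the groups compared (0.99, adjusted p = 0.0861) and with the replicate block (0.91, adjusted p = 0.104). They were lost for *Cyp8b1* with only the groups compared (−1.03, adjusted p = 0.0802) and with the block (−1.02, adjusted p = 0.0540). Library totals lost *Pcsk5* (−0.40, adjusted p = 0.0721) and the test of *Fgfr4* between the noCys and CTR genotype differences (−0.66, adjusted p = 0.0742). With marker sums *Fgfr4* in WT turned to −0.15 (noCys against CTR) and 0.0066 (noTrp against CTR).

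The labels do not say that a replicate number marks a shared source, and 5 of 23 same-numbered pairs had deviations correlated over 0.1 (−0.36 to 0.35, median −0.01), with every pair over 0.1 in 0 of the 6 comparisons with 3 or more pairs. Of the others, with 2 pairs each, KO noTrp against WT noTrp had both over 0.1 (0.35 and 0.13). The numbers were therefore not taken as pairs. With the replicate block *Fgf21*, KO noCys against KO CTR, was 3.31 (called), *Gdf15*, KO noCys against WT noCys, 1.31 (called), and *Gdf15*, KO noTrp against KO CTR, −0.045. In KO noCys against WT noCys 3504 genes were called with the block and 4055 without it.

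With 1 library left out, *Fgf21* ranged from 1.68 to 3.94 (KO noCys against KO CTR), −1.28 to 0.90 (KO noTrp against KO CTR), −0.27 to 0.59 (WT noCys against WT CTR), −1.11 to 2.13 (WT noTrp against WT CTR) and 2.61 to 3.49 (KO noCys against KO noTrp). *Gdf15* ranged from 0.89 to 1.68 (KO noCys against WT noCys), −0.085 to 1.29 (KO noTrp against WT noTrp), −0.12 to 0.64 (KO noTrp against KO CTR), −0.17 to 1.17 (WT noTrp against WT CTR), 1.61 to 2.54 (KO noCys against KO noTrp) and −0.027 to 1.34 (genotype difference, noCys minus noTrp). *Klb* ranged from −0.49 to 0.22 (KO noTrp against WT noTrp), −0.080 to 0.16 (KO noCys against KO CTR), −0.61 to 0.10 (WT noTrp against WT CTR) and −0.047 to 0.66 (genotype difference, noCys minus noTrp). *Fgfr4* ranged from −0.69 to 0.10 (KO noTrp against WT noTrp) and −0.48 to 0.31 (WT noTrp against WT CTR). *Fgfr1* ranged from −0.23 to 0.35 (KO CTR against WT CTR), −0.62 to 0.39 (KO noTrp against WT noTrp), −0.33 to 0.27 (KO noCys against KO CTR), −0.082 to 0.50 (KO noTrp against KO CTR) and −0.69 to 0.33 (genotype difference, noCys minus noTrp).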
